A study of Mus musculus with 8 samples.

Results

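The cone phototransduction genes described here are the 10 genes *Opn1sw*, *Opn1mw*, *Gnat2*, *Gnb3*, *Gngt2*, *Pde6c*, *Pde6h*, *Cnga3*, *Cngb3* and *Arr3*, chosen by name for their known roles in cones. They are 10 of the 17500 genes with deposited counts, and all 10 passed the filter on low counts, as did 16797 genes in all. RNA of the whole retina was sequenced from 4 control mice (M833, M894, M896 and M898) and 4 Rbfox2 KD mice (M893, M901, M902 and M909), with 1 poly(A)-selected library per mouse. All mice were on the C57BL/6J background and 6 months old. By the study's methods, the Rbfox2 KD mice carried 2 floxed *Rbfox2* alleles and 1 copy of a tamoxifen-activated Cre that is active in most cell types and not in cones alone, and the controls were heterozygous for the floxed allele. By the same methods, mice received tamoxifen or its corn oil vehicle by mouth, and the Rbfox2 KD retinas were taken 4 months after the dosing. The labels of all 8 samples name tamoxifen, so that which of these the controls received is not clear.

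In a cone, light turns an opsin on, the opsin activates the G protein transducin, and transducin releases the inhibition of a phosphodiesterase that breaks down cyclic GMP. The fall of cyclic GMP closes a cation channel in the outer segment, and a cone arrestin helps to shut the opsin off. Rods use a parallel set of proteins, most of them encoded by other genes, and in the mouse retina rods far outnumber cones, many of which make both opsins, with more of the short-wave opsin in the ventral retina and more of the medium-wave opsin in the dorsal retina.

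Each library held between 160630226 and 211283591 counts, and the 10 genes had between 2683 and 82873 counts in each library. Levels are given as CPM, counts scaled to a common library size with TMM factors, and a positive log2 fold change stands for a higher level in Rbfox2 KD retinas. *Rbfox2*, the targeted gene, had 53.6 to 59.4 CPM in the Rbfox2 KD libraries and 143.8 to 156.8 CPM in the controls, and so matched the labels in all 8. M901 and M902 held 1440 and 1739 CPM of *Xist*, the RNA of the inactive X chromosome, and the other 6 libraries held 1.71 to 2.22 CPM. High *Xist* was thus found in Rbfox2 KD libraries only and in no control, and was not balanced between the groups. A difference tied to it, such as one of sex, is partly confounded with the group. The study's methods do not give the sex of the mice. *Opn1mw* and *Arr3* lie on the X chromosome. All 10 cone genes were present in every library, while the summed level of 4 lens crystallin genes was at most 3.81 CPM in any library. The summed level of 6 pigment epithelium genes was higher and varied between mice. It was 54.7 to 144 CPM in controls and 47.2 to 133 CPM in Rbfox2 KD retinas.

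The sequence just before the start of a gene is shown for both opsins, whose group means differed in opposite directions, and for the only other cone genes in whose window the motif TAATC, the core of sites known to be bound by the photoreceptor factor Crx and its relatives, was found. Sequences are RefSeq promoters on GRCm38.p6 and cover the 250 bases before the RefSeq start, from which positions are counted. They are written 5′ to 3′ in the direction of the gene, and the capitals mark TAATC or its reverse complement GATTA. For *Opn1sw* and *Gnat2* the GENCODE gene starts lie further upstream, at 29388468 and 108092789. The windows of these genes therefore lie within the gene spans given below.
Opn1sw (chr6:29380514-29380763, minus strand): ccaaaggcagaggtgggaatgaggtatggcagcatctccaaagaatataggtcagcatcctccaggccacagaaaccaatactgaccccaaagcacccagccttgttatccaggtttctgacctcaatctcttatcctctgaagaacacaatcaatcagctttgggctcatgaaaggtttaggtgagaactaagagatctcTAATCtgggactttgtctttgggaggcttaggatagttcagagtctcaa
Opn1mw (chrX:74127216-74127465, plus strand): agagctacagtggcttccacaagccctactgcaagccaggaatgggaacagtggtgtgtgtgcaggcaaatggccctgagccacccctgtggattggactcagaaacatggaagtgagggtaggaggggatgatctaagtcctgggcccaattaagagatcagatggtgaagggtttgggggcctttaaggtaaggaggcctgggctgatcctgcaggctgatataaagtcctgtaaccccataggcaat
Gnat2 (chr3:108092816-108093065, plus strand): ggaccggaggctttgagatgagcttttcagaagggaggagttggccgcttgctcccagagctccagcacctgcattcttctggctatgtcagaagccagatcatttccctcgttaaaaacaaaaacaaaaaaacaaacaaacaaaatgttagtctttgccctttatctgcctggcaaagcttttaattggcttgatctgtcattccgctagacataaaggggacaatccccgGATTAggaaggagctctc
Arr3 (chrX:100605247-100605496, plus strand): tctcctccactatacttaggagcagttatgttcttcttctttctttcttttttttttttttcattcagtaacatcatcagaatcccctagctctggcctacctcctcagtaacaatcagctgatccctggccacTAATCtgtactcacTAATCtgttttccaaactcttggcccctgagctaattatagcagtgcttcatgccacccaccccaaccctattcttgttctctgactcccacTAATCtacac
The table held promoters for 6 of the 10 genes, 7 promoters in all because *Cnga3* had 2 starts. *Gnb3*, *Gngt2*, *Pde6c* and *Cngb3* had none. Searched on both strands, TAATC was found in 3 of the 7 windows, that is 42.9%, and in 19.8% of the 32851 promoters of the table. *Opn1sw* held it at position -49 from the start, *Gnat2* at -18, and *Arr3* 3 times, at -116, -102 and -10. The longer motif TAATCC, which contains TAATC, stood in 1 of the 7, that of *Gnat2*, and in 6.3% of all promoters, and the TATA motif TATAAA in 2 of the 7 and in 12.4% of all. No TAATC was found in these letters before *Opn1mw*.

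Of the 10 cone genes, 9 had a higher mean in Rbfox2 KD retinas and 1, *Opn1mw*, a lower mean. A log2 fold change above 0 was found for 50.7% of all genes tested. The median log2 fold change of the 10 genes was 0.13, against 0.0016 over all genes. In edgeR (quasi-likelihood test, Benjamini-Hochberg adjusted over all genes tested), a false discovery rate (FDR) under 0.05 was reached by 0 of the 10 cone genes and by 0.0655% of all genes. DESeq2 called 2 of the 10 cone genes and 2.74% of all genes. The limma-voom and limma-trend fits each called 0 of the 10 cone genes and only 11 of all genes tested. At an unadjusted p under 0.05, 4 cone genes were higher (*Opn1sw*, *Gngt2*, *Pde6c* and *Cnga3*), a side on which 6.42% of all genes fell, and 1 (*Opn1mw*) was lower, as were 6.87% of all genes. In 2 of the 10, *Gngt2* and *Cnga3*, every Rbfox2 KD library lay above every control library, which held for 3.64% of all genes, and in 0 of the 10 every Rbfox2 KD library lay below, which held for 3.39% of all genes. In RNA of a whole tissue, more cells of a type and more RNA per cell cannot be told apart.

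**Figure D1:**
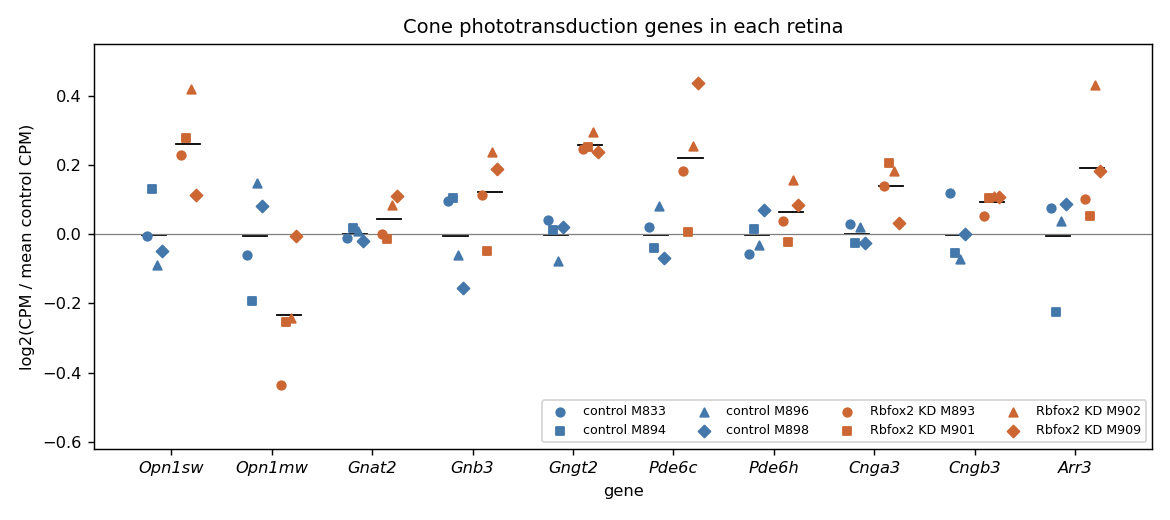
Level of each cone phototransduction gene in each retina, as the log2 ratio of its CPM to the mean CPM of the 4 controls. Each point is 1 mouse and each black line the mean of a group. The Rbfox2 KD points of *Gngt2* stand close together above all controls, those of *Opn1sw* are spread above all controls but M894, and *Opn1mw* is the only gene whose Rbfox2 KD mean is lower.

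*Opn1sw*, the short-wave cone opsin, lies on the minus strand of chromosome 6 (GRCm38, 29376671 to 29388468). Its level was 353 CPM in M833, 388 in M894, 333 in M896 and 343 in M898 among the controls, and 416 CPM in M893, 430 in M901, 384 in M909 and 474 in M902 among the Rbfox2 KD retinas. Apart from control M894, which lay just above M909, every Rbfox2 KD library was higher than every control library. The means were 354 ± 24.0 CPM in controls and 426 ± 37.4 CPM in Rbfox2 KD retinas (SD, n = 4 each), a log2 fold change of 0.26 (standard error 0.068, 95% interval 0.11 to 0.42, unadjusted p = 0.00310, adjusted p = 0.192 in edgeR with Benjamini-Hochberg adjustment). DESeq2 gave a like log2 fold change with an adjusted p of 0.0112. Without M901 and M902, the log2 fold change of *Opn1sw* was 0.17, and over all the other alternatives it lay between 0.17 and 0.31. Exons of *Calu*, a calcium-binding protein of the secretory pathway, cover 397 exon bases of *Opn1sw* on the other strand, and the strand setting of the counting is not given. *Calu* had a log2 fold change of -0.015.

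*Opn1mw*, the medium-wave cone opsin, lies on the plus strand of chromosome X (GRCm38, 74127464 to 74150760). It had 102 CPM in M833, 92.6 in M894, 117 in M896 and 112 in M898, and in the Rbfox2 KD retinas 78.3 CPM in M893, 88.9 in M901, 106 in M909 and 89.6 in M902. M893, M901 and M902 were below every control, and M909 was above controls M833 and M894. Control retinas had 106 ± 11.1 CPM and Rbfox2 KD retinas 90.6 ± 11.3 CPM (SD, n = 4 each), a log2 fold change of -0.23 (standard error 0.094, 95% interval -0.44 to -0.015, unadjusted p = 0.0379, adjusted p = 0.353 from the same edgeR test with Benjamini-Hochberg adjustment). The value without M901 and M902, the libraries with *Xist*, was -0.21, with an unadjusted p above the threshold.

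Both opsins were then set against each other within each library, since their ratio does not depend on library size. For every count of *Opn1mw* the control libraries held 3.48 counts of *Opn1sw* in M833, 4.19 in M894, 2.84 in M896 and 3.06 in M898, and the Rbfox2 KD libraries held 5.31 in M893, 4.84 in M901, 3.63 in M909 and 5.29 in M902. Control M894 and Rbfox2 KD mouse M909 crossed over, and the other 3 mice of each group did not overlap. On the log2 scale the mean ratio was 1.75 ± 0.247 in controls and 2.24 ± 0.258 in Rbfox2 KD retinas (SD, n = 4 each). The difference was 0.49, a 1.41-fold higher ratio, and did not pass the threshold (exact permutation test over 70 assignments, two-sided, p = 0.0571, where the smallest p possible is 0.0286). Without M901 and M902 it was 0.39 (exact permutation test, p = 0.2). Per transcript length, in the deposited FPKM, short-wave opsin exceeded medium-wave opsin by 1.44 to 2.12 times in controls and by 1.84 to 2.69 times in Rbfox2 KD retinas. The share of dorsal and ventral retina in each sample is not given, and its part in the ratio was not tested.

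The summed level of both opsins was 455 CPM in M833, 481 in M894, 451 in M896 and 455 in M898, and 494 in M893, 519 in M901, 489 in M909 and 563 in M902. All Rbfox2 KD libraries were above all controls on this scale, on which the abundant *Opn1sw* weighs most. In FPKM, which gives *Opn1mw* more weight, the sums were 226 to 240 in controls and 238 to 267 in Rbfox2 KD retinas, and the groups overlapped.

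**Figure D2:**
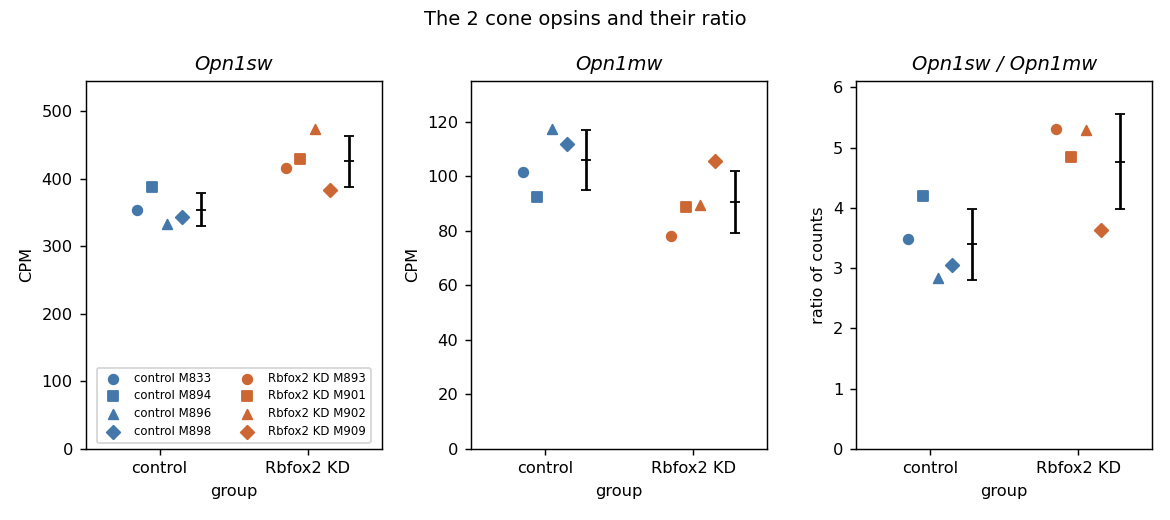
CPM of *Opn1sw* (left) and *Opn1mw* (middle) and the ratio of their counts (right) in each retina, with axes that start at 0. Points are mice, named in the key, and the black marks give the mean ± SD of 4 mice. The ratio is 2.84 to 4.19 in controls and 3.63 to 5.31 in Rbfox2 KD retinas, and only M894 and M909 cross.

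Transducin consists of an alpha subunit that carries GTP and a beta-gamma pair, encoded in cones by *Gnat2*, *Gnb3* and *Gngt2*. *Gngt2*, the gamma subunit (chromosome 11, 95837216 to 95845734, plus strand), had the lowest p of the cone genes and stood at rank 15 of all genes tested. It had 43.7 CPM in M833, 42.8 in M894, 40.2 in M896 and 43.0 in M898, and 50.3 CPM in M893, 50.6 in M901, 50.0 in M909 and 52.1 in M902. Each Rbfox2 KD library was above each control library, and the 4 Rbfox2 KD libraries lay closer to each other than the groups lay apart. The means were 42.4 ± 1.51 CPM and 50.8 ± 0.910 CPM (SD, n = 4 each), a log2 fold change of 0.26 (standard error 0.038, 95% interval 0.17 to 0.34, unadjusted p = 5.07e-05, adjusted p = 0.0568 in edgeR with Benjamini-Hochberg adjustment). The adjusted p was 2.77e-07 with DESeq2, 0.0480 in edgeR without control M833 and 0.486 in edgeR without M901 and M902, where the log2 fold change was still 0.24. *Abi3*, a gene known from microglia, shares 234 exon bases with *Gngt2* on the other strand. Its level was 3.28 CPM in controls and 3.80 CPM in Rbfox2 KD retinas, a log2 fold change of 0.21 (adjusted p = 0.358 in edgeR), and the part of such reads in the *Gngt2* counts was not tested. The summed CPM of 5 microglial genes was 32.4 to 35.7 in controls and 28.2 to 35.4 in Rbfox2 KD retinas.

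The other transducin subunits had smaller log2 fold changes. *Gnat2*, the alpha subunit (chromosome 3, 108092789 to 108101432, plus strand), had 133 CPM in M833, 136 in M894, 135 in M896 and 132 in M898, and 134 CPM in M893, 133 in M901, 145 in M909 and 142 in M902. The control libraries were nearly level, and M893 and M901 lay among them. Its log2 fold change was 0.047 with a 95% interval of -0.031 to 0.12 (adjusted p = 0.594 in edgeR with Benjamini-Hochberg adjustment), which is -2.15% to 9.01% relative to the control level. Without M909 the log2 fold change of *Gnat2* was 0.025. *Gnb3*, the beta subunit, which ON bipolar cells also use (chromosome 6, 124834240 to 124840275, minus strand), had 341, 343, 306 and 286 CPM in the controls and 345, 308, 376 and 363 CPM in the Rbfox2 KD retinas, in the order M833, M894, M896, M898 and M893, M901, M902, M909. Its groups overlapped through M901, and the log2 fold change was 0.13 (standard error 0.074, 95% interval -0.039 to 0.29, adjusted p = 0.491 in edgeR) and 0.079 without M898.

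The cone phosphodiesterase has a catalytic subunit, *Pde6c*, and an inhibitory gamma subunit, *Pde6h*. *Pde6c* (chromosome 19, 38132781 to 38183958, plus strand) had 109 CPM in M833, 105 in M894, 114 in M896 and 103 in M898, against 122 in M893, 108 in M901, 146 in M909 and 129 in M902. All Rbfox2 KD libraries but M901 were above all controls. Its means were 108 ± 5.04 CPM and 126 ± 15.6 CPM (SD, n = 4 each), a log2 fold change of 0.23 (standard error 0.078, 95% interval 0.055 to 0.40, unadjusted p = 0.0148, adjusted p = 0.276 from edgeR with Benjamini-Hochberg adjustment). Without M901 and M902 the log2 fold change of *Pde6c* was 0.31. *Pde6h* (chromosome 6, 136923832 to 136968865, plus strand) had 73.9, 77.8, 75.2 and 80.7 CPM in the controls and 79.1, 75.7, 85.8 and 81.5 CPM in the Rbfox2 KD retinas, in the order of mice given for *Gnb3*. M902 and M909 lay above the controls and the other 2 among them, and the log2 fold change was 0.066 (standard error 0.045, 95% interval -0.035 to 0.17, adjusted p = 0.563 in edgeR) and 0.033 without M902. *Arhgdib* shares 136 exon bases with *Pde6h* on the other strand and had 3.52 CPM in controls and 3.96 CPM in Rbfox2 KD retinas.

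The cone channel that cyclic GMP keeps open is built of the subunits encoded by *Cnga3* and *Cngb3*, whose levels were the lowest of the 10. *Cnga3*, the pore-forming alpha subunit (chromosome 1, 37214434 to 37263384, plus strand), had 15.8 CPM in M833, 15.2 in M894, 15.7 in M896 and 15.2 in M898, and 17.0 CPM in M893, 17.8 in M901, 15.8 in M909 and 17.5 in M902. The groups did not overlap, but M909 and control M833 were almost level. The log2 fold change was 0.14 (standard error 0.050, 95% interval 0.029 to 0.25, unadjusted p = 0.0183, adjusted p = 0.287 from edgeR with Benjamini-Hochberg adjustment), and it was 0.084 without M901 and M902. *Cngb3*, the beta subunit (chromosome 4, 19280850 to 19510623, plus strand), had 24.1, 21.4, 21.1 and 22.2 CPM in the controls and 23.0, 23.9, 24.0 and 23.9 CPM in the Rbfox2 KD retinas, again in the order given for *Gnb3*. Control M833 was above all Rbfox2 KD libraries and the other 3 controls were below them, and the log2 fold change was 0.094 (standard error 0.050, with an adjusted p of 0.445 in edgeR).

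*Arr3*, the cone arrestin (chromosome X, 100605497 to 100618493, plus strand), had 151 CPM in M833, 123 in M894, 147 in M896 and 153 in M898, and 154 in M893, 149 in M901, 163 in M909 and 194 in M902. Control M894 was low and Rbfox2 KD mouse M902 was high, and the ranges met through M901. The log2 fold change was 0.20 (standard error 0.091, 95% interval -0.0021 to 0.40, unadjusted p = 0.0520, adjusted p = 0.381 from edgeR with Benjamini-Hochberg adjustment). It was 0.11 without M902 and 0.13 without M894.

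Per length, the cone genes of the control retinas spanned 4.30 to 174 FPKM. Levels are taken here from the deposited FPKM, which are divided by length so that genes can be compared. The order therefore depends on the lengths used. These were 558 bases for *Pde6h*, 574 for *Gngt2* and 2888 for *Pde6c*. The merged GENCODE exons of these genes cover 7846, 1877 and 2970 bases. The order in controls was *Gnb3* with a mean of 174 FPKM, *Opn1sw* with 148, *Pde6h* with 139, *Arr3* with 106, *Opn1mw* with 87.4, *Gnat2* with 75.9, *Gngt2* with 74.3, *Pde6c* with 37.5, *Cngb3* with 4.75 and *Cnga3* with 4.30 FPKM. The ranges of neighbours overlapped among the control mice from *Gnb3* to *Pde6h* and from *Arr3* to *Gngt2*, so that the order within these runs was not set apart by the spread between mice. In Rbfox2 KD retinas *Gngt2* and *Opn1mw* had changed places, with *Gngt2* at 87.9 FPKM, *Gnat2* at 77.5 and *Opn1mw* at 73.8 FPKM, and the other 8 genes kept their places. In FPKM the inhibitory *Pde6h* thus had a level above that of the catalytic *Pde6c* in every library. In CPM, which are not divided by length, *Pde6h* was below *Pde6c* in every library, with control means of 76.9 and 108 CPM. The 2 channel subunits lay below the other cone genes in every library.

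**Figure D3:**
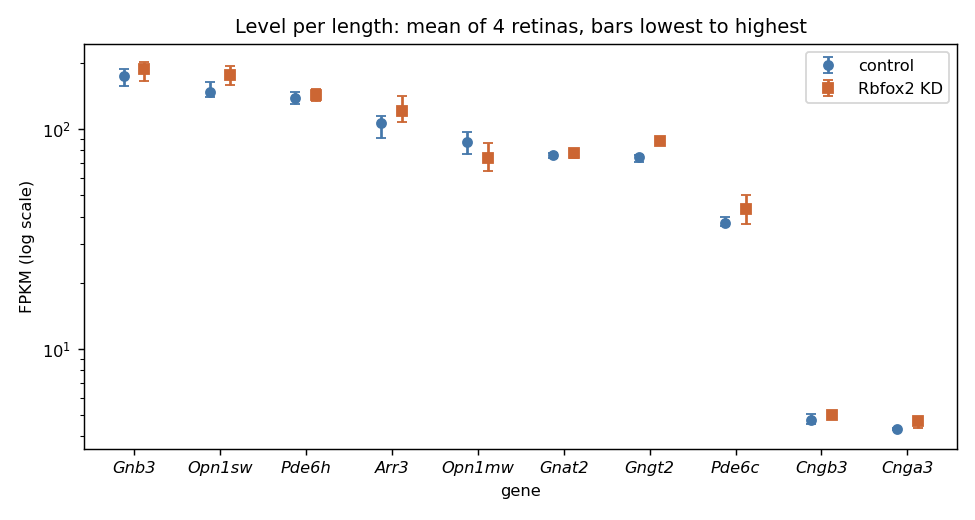
Deposited FPKM of each cone gene on a log axis, ordered by the control mean. Points are means of 4 retinas and bars run from the lowest to the highest mouse. *Cngb3* and *Cnga3*, at 4.75 and 4.30 FPKM in controls, lie below the other 8 genes, and *Gngt2* and *Opn1mw* change places between the groups.

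A set of 9 rod counterparts (*Gnat1*, *Gnb1*, *Gngt1*, *Pde6a*, *Pde6b*, *Pde6g*, *Cnga1*, *Cngb1* and *Sag*) of the 8 cone genes other than the opsins was compared to see where the cone genes differed from them. All 9 had a log2 fold change above 0, from 0.016 in *Cnga1* to 0.23 in *Gngt1*, with a median of 0.13. Without M901 and M902 that of *Cnga1* was -0.030. None had an FDR under 0.05 in edgeR, and 7 were higher at an unadjusted p under 0.05, as were 6.42% of all genes. DESeq2 gave 5 with an adjusted p under 0.05 (*Gnat1*, *Gngt1*, *Pde6b*, *Pde6g* and *Sag*), against 2.74% of all genes. The Rbfox2 KD libraries were all above the controls for *Gnat1* (0.19), *Gngt1* (0.23), *Pde6b* (0.13) and *Pde6g* (0.19), which held for 3.64% of all genes. In the gamma subunits of transducin, cone and rod values were thus close, with log2 fold changes of 0.26 in *Gngt2* and 0.23 in *Gngt1*, and the group means of their log2 ratio were 0.025 apart. In controls the FPKM of a cone gene was between 1.21% (*Gnat2* against *Gnat1*) and 8.29% (*Gngt2* against *Gngt1*) of that of its rod counterpart.

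Set against their rod counterparts within each library, the 8 cone genes other than the opsins had overlapping values in the 2 groups. The mean of the 8 log2 ratios of cone over rod CPM was -5.18 in M833, -5.16 in M894, -5.12 in M896 and -5.15 in M898, and -5.12 in M893, -5.29 in M901, -5.12 in M909 and -5.10 in M902. M901 was the lowest and the other libraries were mixed. The group means were -5.15 in controls and -5.16 in Rbfox2 KD retinas, a difference of -0.0074 with SDs of 0.027 and 0.091, and the difference was 0.038 without M901. For each of the 8 ratios, with *Pde6c* set against the mean of *Pde6a* and *Pde6b*, the ranges of the groups overlapped, with differences in log2 ratio from -0.15 (*Gnat2* over *Gnat1*) to 0.12 (*Cnga3* over *Cnga1*).

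**Figure D4:**
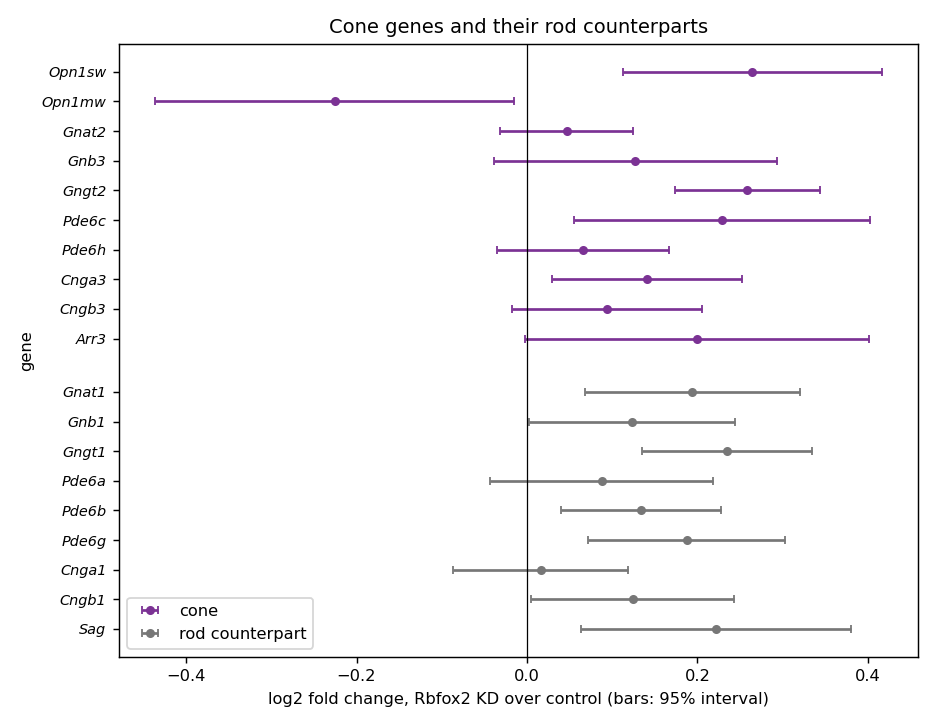
Log2 fold change of Rbfox2 KD over control with its 95% interval from edgeR for the 10 cone genes and 9 rod counterparts. All points but that of *Opn1mw* lie above 0, and the medians of the cone and rod genes are both 0.13.

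Averaged over the 10 genes, the log2 level relative to the control mean was 0.069 in M893, 0.059 in M901, 0.15 in M909 and 0.20 in M902, and -0.023 to 0.027 in the controls. The same average over the rod counterparts was 0.076 in M893, 0.20 in M901, 0.14 in M909 and 0.17 in M902, and -0.040 to 0.076 in the controls. M901 was thus the lowest Rbfox2 KD mouse for the cone genes and the highest for the rod genes. Without the opsins, the cone average of the Rbfox2 KD mice ranged from 0.069 to 0.22.

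Markers of other retinal cells were measured beside the cone genes. Of 7 bipolar genes, 6 had a lower mean in Rbfox2 KD retinas, with a median log2 fold change of -0.12. All Rbfox2 KD libraries were below all controls for *Pcp2* (-0.18) and *Isl1* (-0.19), which held for 3.39% of all genes. Neither had an FDR under 0.05 (adjusted p = 0.149 and 0.116 in edgeR). *Grm6*, the glutamate receptor of ON bipolar cells, had 0.19. The summed bipolar CPM was 1239 to 1352 in controls and 1193 to 1255 in Rbfox2 KD retinas. Of 6 genes of Muller glia, 4 had a lower mean, from -0.19 in *Apoe* to 0.053 in *Rlbp1*. *Glul* (-0.17, adjusted p = 0.221 in edgeR) was below all controls in every Rbfox2 KD library. The summed CPM of the Muller glia genes was 6026 to 6711 in controls and 5386 to 6091 in Rbfox2 KD retinas. Of 4 horizontal cell genes, *Calb1* was lower, with a log2 fold change of -0.40 (adjusted p = 0.00341 in edgeR with Benjamini-Hochberg adjustment), and *Lhx1* had 0.18. Of 6 amacrine genes, 5 had a lower mean, from -0.080 in *Tfap2a* to 0.035 in *Gad1*. *Slc6a9* (-0.079, adjusted p = 0.383 in edgeR) was below all controls in every Rbfox2 KD library. Of 6 ganglion cell genes, 5 had a higher mean, from -0.089 in *Rbpms* to 0.10 in *Pou4f1*, with control M833 low at a summed 592 CPM against 916 to 952 in the other controls. CPM are shares of a library, so that lower levels of other cells and higher levels of photoreceptor genes are not independent, and the part of the cell mixture in the cone values was not tested.

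Factors that set photoreceptor fate and other genes of the cone were taken from lists. Of 10 transcription factors, 7 had a log2 fold change above 0, with a median of 0.037. *Rxrg*, a nuclear receptor known to hold back the short-wave opsin in cones, had 7.24 to 9.22 CPM in controls and 9.52 to 10.03 CPM in Rbfox2 KD retinas, a log2 fold change of 0.18 (unadjusted p = 0.0446, adjusted p = 0.368 in edgeR), with no overlap. *Thrb*, the thyroid hormone receptor that cones need for the medium-wave opsin, had 0.025 (adjusted p = 0.905 in edgeR), and *Rorb*, the lowest of the list, had -0.15. Of 12 genes of recovery and calcium feedback, 7 were above 0, with a median of 0.050. Among these, *Slc24a2*, a sodium, calcium and potassium exchanger found in cones and other neurons, had 135 to 143 CPM in controls and 114 to 127 CPM in Rbfox2 KD retinas. Its log2 fold change was -0.18, with no overlap (unadjusted p = 0.00125, adjusted p = 0.155 in edgeR), the opposite sign of 9 of the 10 cone genes. *Gucy2f*, a guanylate cyclase of photoreceptors, had the highest value of that list with 0.18. Of 6 other genes enriched in cones, 2 were above 0, with a median of -0.011. *Kcnv2*, a potassium channel subunit of rods and cones, had 0.26 with no overlap (adjusted p = 0.176 in edgeR), and *Otop3* had -0.43 (unadjusted p = 0.0355, adjusted p = 0.348 in edgeR).

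**Figure D5:**
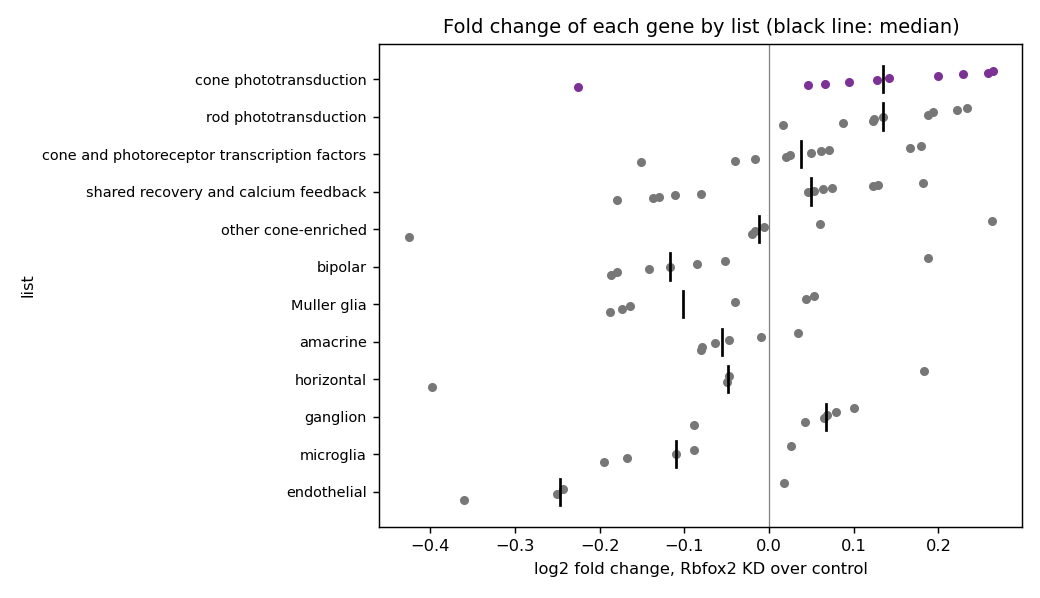
Log2 fold change of Rbfox2 KD over control for each gene of 12 lists, 1 point per gene and a black line at the median. The cone and rod phototransduction genes have the highest medians, 0.13 each. The endothelial genes have the lowest, -0.25, and the medians of the bipolar, microglial and Muller glia genes are -0.12, -0.11 and -0.10. Lens and pigment epithelium genes, with values beyond the axis, are not drawn.

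Among 13746 genes compared, the log2 CPM of *Rom1*, a structural protein of photoreceptor outer segment discs, followed the mean of the cone genes most closely over the 8 libraries, with Pearson r = 0.967. *Sft2d3* (0.963), *Fancf* (0.955), *Pih1d1* (0.949) and *Mettl21a* (0.946) came next. These values describe 8 libraries of 2 groups that share their scaling, and they were picked as the highest of many.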

How the data were processed

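Retinal RNA of 8 mice was sequenced as paired reads, and by the study's methods reads were aligned to mm10 with STAR and uniquely mapped fragments were counted per gene with HTSeq. The submitters' processing notes name CASAVA 1.8.2, edgeR and the builds mm10 and GRCm38. Both RefSeq and Ensembl annotation are named, and the strand setting is not given in the sources used here. The authors deposited raw counts per gene, and FPKM that the authors computed per transcript length and library size. FPKM were used for levels between genes and for the ratio and sum of the opsins in both groups. They also served as another scale for the group differences of the opsin ratio and of cone over rod. Gene length and library size cancel in these differences, so that FPKM had to give the same values and were not a separate check. No edgeR, DESeq2 or limma fit used FPKM. The authors' adjusted signal (16 columns with per-mouse values not used in all) and their fold changes and p-values were not used.

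Counts were filtered with filterByExpr, TMM-normalized and tested in edgeR 4.0.16 (R 4.3.3) by the quasi-likelihood test without covariates, with Benjamini-Hochberg adjustment over 16797 genes and the whole table in 1 fit. Standard errors are the log2 fold change over the square root of F, and 95% intervals use the total degrees of freedom. The ratio of the opsins was compared by exact permutation. Alternatives were DESeq2 1.42.0, limma-voom and limma-trend (limma 3.58.1), upper-quartile scaling, no filter, at least 10 counts in every library, each mouse left out, M901 and M902 left out, and high *Xist* as a term. The scripts were tested on simulated data. No 2 libraries agreed within sampling noise.

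Genes were placed on GENCODE M21 (GRCm38). The cone genes were taken by name for their roles, but they and the lists and rules were chosen with earlier results of these data known. Named were all 10 cone genes, the rod genes by range and where the groups did not overlap, and of each list the highest, the lowest and any gene without overlap. *Thrb* was named after its value was seen. Genes of the rod and bipolar lists that are not reported here were taken out of these lists after their values were seen, and the comparison with rods was recomputed without the opsins. Genes of likeness were the 5 with the highest r among genes of at least 1 CPM on average. The pigment epithelium list (summed 54.7 to 144 CPM in controls, 47.2 to 133 in Rbfox2 KD, *Tyrp1* -2.03 and *Ttr* 0.39), the lens list (*Cryba1* -0.078, *Cryaa* 0.66), the endothelial list (27.5 to 38.2 and 21.9 to 30.8 CPM, *Cdh5* -0.36 and *Cldn5* 0.017) and the microglial list (*C1qa* -0.19 and *Tmem119* 0.025, log2 fold changes) served as checks on other tissue. Mice are the replicates, and 3 counts corresponded to at most 0.0187 CPM.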

Additional observations from a re-analysis of the deposited data

Results flagged for a closer look

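In groups of 4 mice, a mouse was picked out where its gap to the nearest of the others, as a share of their whole range, was above the 95% critical value of Dixon's test. Of 44 groups examined, 3 held such a mouse, where chance gives 2.2. *Cngb3* in Rbfox2 KD mouse M893, with 23.0 CPM, lay below the other Rbfox2 KD mice (0.911 of the range). *Pde6a*, a catalytic subunit of the rod phosphodiesterase, had 3326 CPM in the same mouse, also below the others (0.842 of the range). The summed level of *Opn1sw* and *Opn1mw* was 481 CPM in control M894, above the other controls (0.856 of the range).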

How the results depend on the processing

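No member reversed its direction under the 16 alternatives, and 157 of 160 values kept both direction and side of the threshold. The median log2 fold change of the cone genes was 0.10 to 0.15 over these alternatives. Cone genes with an FDR under 0.05 numbered 2 with DESeq2 (*Opn1sw* and *Gngt2*) and 0 to 1 with each mouse left out, the 1 being *Gngt2* without M833. With an unadjusted p under 0.05 there were 3 without M901 and M902 and 3 with high *Xist* as a term, against 5 in all libraries. Over all genes, the FDR count of 11 became 460 with DESeq2, 5 to 35 with each mouse left out, 1 without M901 and M902 and 4 with high *Xist* as a term, and the count at an unadjusted p under 0.05 fell from 2233 to 1027 and 1113 under these last 2. Fewer Rbfox2 KD mice enter the fit without M901 and M902, and the cause of the other shifts was not tested. The log2 fold change of *Cnga1* was -0.030 without M901 and M902, -0.028 with high *Xist* as a term and -0.015 to 0.033 with each mouse left out (-0.0099 without M894, -0.015 without M901). The cone over rod difference was 0.032 without M901 and M902 and -0.026 to 0.038 with each mouse left out (0.0037 without M896, 0.038 without M901). The opsin ratio difference was 0.41 to 0.62 with each mouse left out (exact permutation p = 0.0571 to 0.114), and 2 mice against 4 allow no p under 0.0667. No paired analysis was possible because the labels give mouse numbers that the groups do not share. The lowest count of a cone gene in any library was 2683, and no other number of mice per group was tried.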
